A study of Homo sapiens with 6 samples.

Results

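The genes described here encode immune checkpoint ligands and enzymes that tumour cells carry: CD274 (PD-L1), PDCD1LG2 (PD-L2), CD276 (B7-H3), VTCN1 (B7-H4), CD47, PVR (CD155), LGALS9 (galectin-9), NT5E (CD73) and IDO1. They were picked by gene symbol, with earlier results of these data known, and all 9 were found among the 26255 symbols of the deposited files. RNA-seq was performed on BxPC-3, a cell line established from human pancreatic cancer, and gave 6 libraries in 3 groups of 2. Parent cells had no treatment, NC-1 cells received a negative control, and miR-4711-5p cells received the miRNA, and every group was otherwise the same line. The model is a single cell line grown without immune cells, and the labels do not say that the 2 libraries of a group came from separate cultures, so p-values measure the spread between these libraries, which may be technical.

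Checkpoint ligands on a tumour cell bind receptors on T cells, natural killer cells or macrophages and dampen the attack of those cells. PD-L1 and PD-L2 bind PD-1, CD47 binds SIRPα on macrophages, and PVR binds TIGIT. NT5E and IDO1 act through metabolites, as NT5E makes extracellular adenosine from AMP and IDO1 breaks down tryptophan to kynurenine. PD-L1, PD-L2, galectin-9 and IDO1 are all known to be inducible by interferons in many cell types.

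A miRNA lowers mRNAs that pair with its seed, which is bases 2 to 8 of the mature strand. The mature sequence is shown because the sites searched in the 9 genes derive from it. It is 23 nt long, it is given from RefSeq (GRCh38.p14, chromosome 1), and the seed is in capitals.
miR-4711-5p: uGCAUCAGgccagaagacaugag
A 7mer-m8 site pairs with all 7 seed bases, and a 7mer-A1 site pairs with the first 6 of them and has an A opposite base 1. In the longest annotated 3′ UTR (GENCODE on GRCh37, the same assembly as the hg19 named in the submitters' notes), such a site was found in CD276 and CD47 and in none of the other 7 genes. Both are shown with 11 flanking bases on each side and the site in capitals.
CD276: cttcagacgttCTGATGCcttccggatgt
CD47: ggaattatattTGATGCAaatatttgatc
The CD276 site is a 7mer-m8 at chr15:74006722-74006728 on the plus strand, 1425 nt into a 3′ UTR that is 1558 nt long, and 2 of 5 transcripts with a 3′ UTR hold it. The CD47 site is a 7mer-A1 at chr3:107764718-107764724 on the minus strand, 1411 nt into a 3′ UTR that is 4197 nt long, and 2 of 4 transcripts hold it. Of the 11185 tested genes with an annotated 3′ UTR, 18.4% had a site of these kinds or an 8mer, which is a 7mer-m8 site with the A as well. An 8mer was found in 3.61% of them. In coding sequence, NT5E had a 7mer-A1 site (chr6:86197198-86197204) and VTCN1 a 7mer-m8 site (chr1:117690288-117690294, minus strand). A match is a sequence feature only, and binding was not measured.

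The values are FPKM, fragment counts scaled by exon length and library size, so levels can be compared between genes. They summed to between 493145 and 550772 per library, and 16597 to 17305 symbols were above 0. The depth in reads is unknown from FPKM, and only a relative depth could be estimated from the lowest values, at 0.751 to 1.21 times that of Parent 1. The 12040 genes whose mean across libraries reached 1 FPKM entered a limma fit of log2(FPKM + 1), p-values were adjusted by Benjamini-Hochberg, and a gene was called under an adjusted p of 0.05. Of the 9 genes, 8 passed this filter and VTCN1 did not. The smallest p of an exact permutation test with 2 libraries a side is 0.333, and the p-values below therefore depend on the pooling of spread over genes by limma. Markers of ductal and epithelial cells were present, with 9 of 10 at or above a mean of 1 FPKM and KRT7 reaching 1842 FPKM. Within this list, miR-4711-5p set against Parent gave CDH1, MUC1 and KRT19 3.90-, 2.01- and 1.81-fold lower and SOX9 2.18-fold higher, all called by limma against both control groups, and KRT18 was 1.14-fold higher and likewise called. Leukocyte markers summed to 2.51 to 3.55 FPKM over 15 genes in each library, with no value above 2.18 FPKM. Acinar markers (6 genes, 4 of them at 0 throughout) summed to 0.730 and 1.57 FPKM in Parent, 2.62 and 2.73 in NC-1, and 3.18 and 5.10 with miR-4711-5p. This rise was in PRSS1 alone, with means of 1.13, 2.68 and 4.14 FPKM. The only other acinar marker above 0 was CPA1, at 0.0461 FPKM in Parent 1. The endothelial marker CDH5 had means of 0.962, 3.02 and 0.541 FPKM in Parent, NC-1 and miR-4711-5p. Fibroblast markers summed to at most 5.07 FPKM over 8 genes. The part of these marker changes in the results was not tested.

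With miR-4711-5p, CD274, PDCD1LG2, LGALS9 and IDO1 rose 3.09- to 4.02-fold against Parent, PVR and NT5E rose by smaller folds, CD276 fell 2.25-fold, and CD47 was not called. The ratios to NC-1 were 2.44, 1.69, 2.23 and 3.06 for CD274, PDCD1LG2, LGALS9 and IDO1, and 1.38 for PVR. CD276 was 2.82-fold lower than NC-1, and NT5E (ratio 0.913) and CD47 were not called against it. Against Parent, 7 of the 8 tested genes were called, 6 higher and 1 lower, where 43.4% of all tested genes were called. By direction, 18.7% of all tested genes were called higher and 24.7% lower. Against NC-1, 6 of the 8 were called, 5 higher and 1 lower, where 39.6% of all tested genes were called, 18.4% higher and 21.2% lower. NC-1 itself differed from Parent in 5 of the 8, all higher (CD274, PDCD1LG2, CD276, LGALS9 and NT5E). Of all tested genes, 27.2% were called between NC-1 and Parent and 12.1% were called higher. Against both control groups at once, 5 of the 8 were called higher, where 1207 of the 12040 tested genes (10%) were, and 1 was called lower, where 15.4% were. The libraries of the groups compared did not overlap in 7 of the 8 genes for miR-4711-5p against Parent (74.2% of all tested genes), in 7 for miR-4711-5p against NC-1 (72.4%) and in 5 for NC-1 against Parent (65.5%). Both miR-4711-5p libraries were above the 4 controls in 5 of the 8 (23.8% of all tested genes) and below them in 1 (26.3%). The median log2 fold change of the 8 genes was 0.82 against Parent and 0.53 against NC-1, and over all tested genes it was -0.01 and 0.00. The genes were chosen with earlier results of these data known, so these counts and medians are a description and not an independent test.

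**Figure D1:**
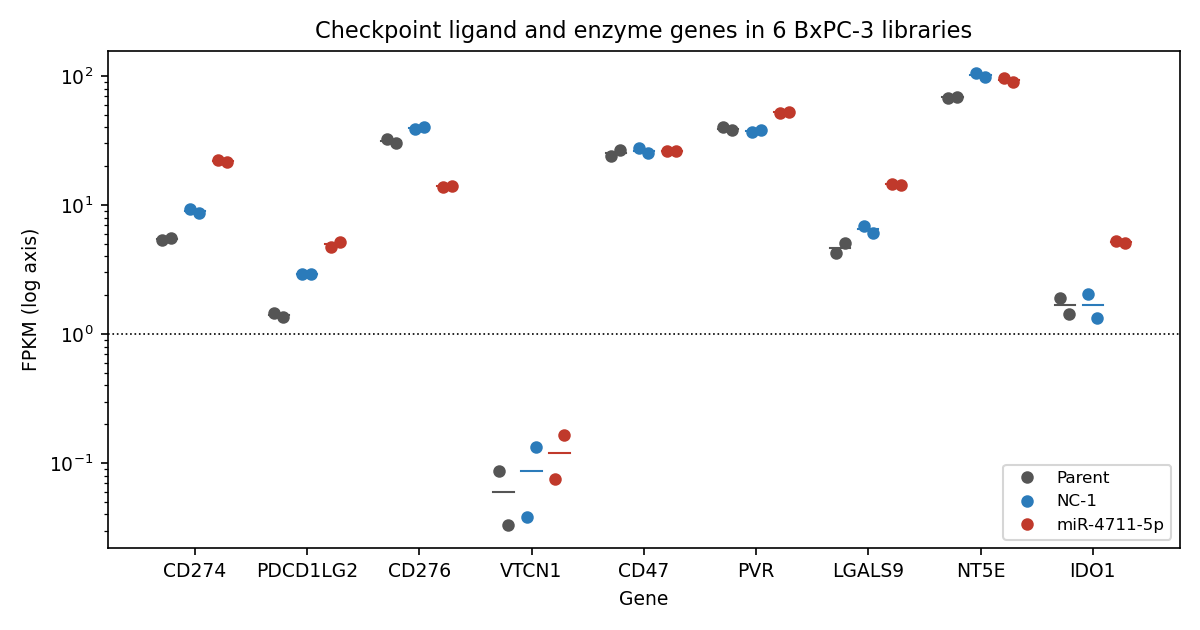
FPKM on a log axis of the 9 genes in each of the 6 libraries (points) with the mean of each group (lines). The dotted line marks 1 FPKM. The miR-4711-5p points lie above all control points for CD274, PDCD1LG2, LGALS9, PVR and IDO1, and below them for CD276.

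CD274 encodes PD-L1, the main ligand of PD-1. Its level was 5.37 and 5.55 FPKM in Parent, 9.29 and 8.75 FPKM in NC-1, and 22.3 and 21.6 FPKM with miR-4711-5p. The 3 groups did not overlap, with Parent lowest and miR-4711-5p highest. The mean was 4.02 times that of Parent, with a log2 fold change of 1.83 ± 0.06 (SE) and an adjusted p of 3.61e-06 by limma. By log2 fold change it was in place 53 from the top of the 12040 tested genes against Parent and in place 103 against NC-1. Against NC-1 the ratio of means was 2.44, and the log2 fold change was 1.20 (95% interval 1.06 to 1.34, limma adjusted p = 1.40e-05). NC-1 was itself 1.65-fold above Parent (log2 fold change 0.63, limma adjusted p = 0.00109).

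PDCD1LG2 encodes PD-L2, the other ligand of PD-1, and lies on the same chromosome as CD274. On GRCh37, CD274 is at chr9:5450503-5470566 and PDCD1LG2 at chr9:5510531-5571282, both on the plus strand. PDCD1LG2 had 1.46 and 1.37 FPKM in Parent, 2.93 and 2.94 FPKM in NC-1, and 4.74 and 5.19 FPKM with miR-4711-5p. The groups were ordered as for CD274, without overlap. The ratio of means was 3.51 against Parent (log2 fold change 1.30, limma adjusted p = 4.57e-05) and 1.69 against NC-1 (log2 fold change 0.60, limma adjusted p = 0.00182). NC-1 was 2.07-fold above Parent (limma adjusted p = 0.00262). The log2 fold changes understate the ratios here because 1 was added to low values.

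CD276 encodes B7-H3, a B7 family protein found on many solid tumours. It was the only one of the 8 tested genes called lower with miR-4711-5p. The level was 32.5 and 30.4 FPKM in Parent, 38.8 and 40.1 FPKM in NC-1, and 13.8 and 14.2 FPKM with miR-4711-5p. The values with miR-4711-5p lay under those of every control library. Against Parent the mean was 2.25-fold lower, with a log2 fold change of -1.12 ± 0.05 (SE) and an adjusted p of 1.10e-05 by limma. Against NC-1 it was 2.82-fold lower (log2 fold change -1.43, limma adjusted p = 5.80e-06). Its place from the bottom of the tested genes was 113 against Parent and 55 against NC-1. NC-1 was above Parent by 1.25-fold (limma adjusted p = 0.00691), the opposite direction to miR-4711-5p. The 3′ UTR of CD276 holds the 7mer-m8 site shown above, and whether the site took part in the decrease was not tested. VTCN1, which encodes the related B7-H4, had 0.0864 and 0.0330 FPKM in Parent, 0.0383 and 0.134 FPKM in NC-1, and 0.0752 and 0.164 FPKM with miR-4711-5p. These values overlapped between all groups and their mean was under the filter, so VTCN1 was not tested.

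**Figure D2:**
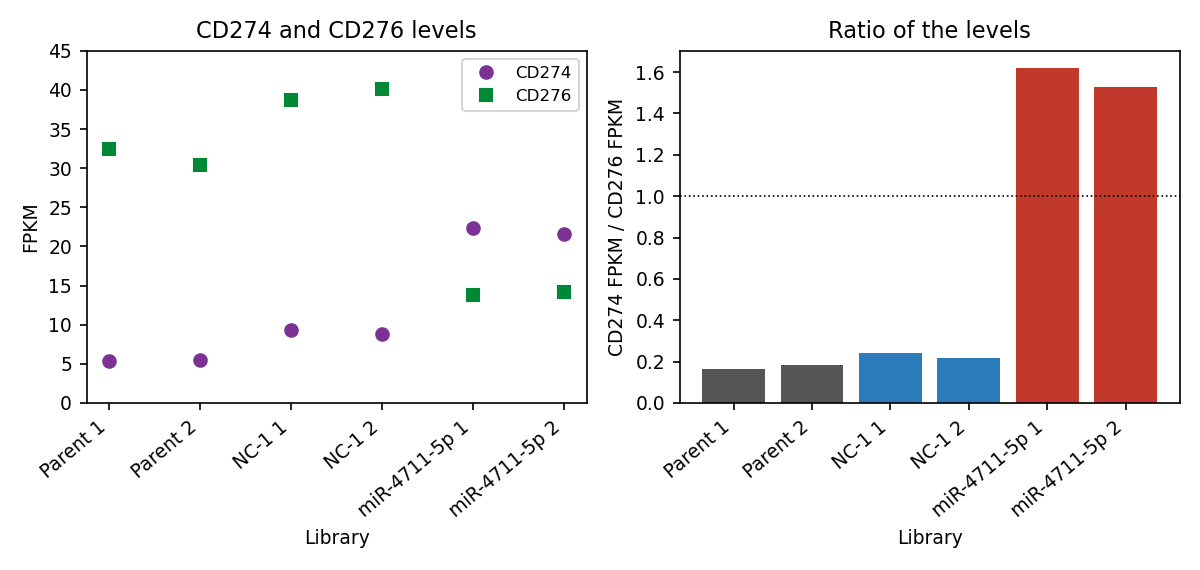
FPKM of CD274 (circles) and CD276 (squares) in each library on the left, and the ratio of CD274 to CD276 on the right, coloured by group. The ratio lies between 0.165 and 0.240 in the 4 control libraries and is 1.62 and 1.53 with miR-4711-5p.

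Because CD274 rose and CD276 fell, their order changed. The ratio of CD274 to CD276 in FPKM was 0.165 and 0.182 in Parent, 0.240 and 0.218 in NC-1, and 1.62 and 1.53 with miR-4711-5p. CD276 was the more abundant mRNA in the control libraries and CD274 in both miR-4711-5p libraries. The ratio of CD274 to PDCD1LG2 moved less, from 3.66 and 4.06 in Parent and 3.17 and 2.97 in NC-1 to 4.71 and 4.16 with miR-4711-5p.

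CD47 encodes the "don't eat me" signal read by macrophages. It had 23.9 and 26.5 FPKM in Parent, 27.6 and 25.2 FPKM in NC-1, and 26.3 FPKM in both miR-4711-5p libraries. The groups overlapped, and it was not called in any comparison. Against Parent the log2 fold change was 0.06 with a 95% interval from -0.10 to 0.22 (limma adjusted p = 0.517), and against NC-1 it was -0.01 with an interval from -0.16 to 0.15 (limma adjusted p = 0.960). Its 3′ UTR holds the 7mer-A1 site shown above.

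PVR, the poliovirus receptor and a ligand of TIGIT and CD226, had 39.9 and 38.0 FPKM in Parent, 37.05 and 38.5 FPKM in NC-1, and 52.1 and 52.2 FPKM with miR-4711-5p. The control groups overlapped, and both miR-4711-5p libraries were above them. The rise was 1.34-fold against Parent (limma adjusted p = 0.000589) and 1.38-fold against NC-1 (limma adjusted p = 0.000433).

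LGALS9 encodes galectin-9, a lectin that binds TIM-3. It had 4.23 and 5.12 FPKM in Parent, 6.85 and 6.10 FPKM in NC-1, and 14.6 and 14.3 FPKM with miR-4711-5p. The groups did not overlap. The ratio of means was 3.09 against Parent (log2 fold change 1.45, limma adjusted p = 3.39e-05) and 2.23 against NC-1 (log2 fold change 1.05, limma adjusted p = 0.000183). NC-1 was 1.39-fold above Parent (limma adjusted p = 0.0193), and this call was lost without Parent replicate 1 (limma adjusted p = 0.0870), without NC-1 replicate 1 (0.101) and with no filter on low values (0.0629). A group left with 1 library has no spread of its own, and limma then takes it to vary like the other groups. Its near copies LGALS9B and LGALS9C were at or below 0.0925 FPKM, and reads shared with them were not measured.

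NT5E encodes the ectoenzyme CD73 and was the most abundant of the 9 mRNAs in every group. It had 67.9 and 69.0 FPKM in Parent, 105 and 98.1 FPKM in NC-1, and 96.1 and 89.3 FPKM with miR-4711-5p. Parent was lowest, and the miR-4711-5p libraries lay below the NC-1 libraries. The rise against Parent was 1.35-fold with miR-4711-5p (limma adjusted p = 0.000837) and 1.48-fold with NC-1 (limma adjusted p = 0.00126). Between miR-4711-5p and NC-1 the ratio was 0.913 and was not called (log2 fold change -0.13, 95% interval -0.26 to -0.0019, limma adjusted p = 0.0972).

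IDO1 encodes indoleamine 2,3-dioxygenase, the first enzyme of tryptophan breakdown. It had 1.91 and 1.43 FPKM in Parent, 2.04 and 1.34 FPKM in NC-1, and 5.30 and 5.04 FPKM with miR-4711-5p. The control groups overlapped, unlike those of CD274, PDCD1LG2 and LGALS9. The ratio of means was 3.09 against Parent (log2 fold change 1.21, limma adjusted p = 0.000737) and 3.06 against NC-1 (log2 fold change 1.21, limma adjusted p = 0.000836). NC-1 against Parent was not called, with a log2 fold change of 0.00 and a 95% interval from -0.35 to 0.35 (limma adjusted p = 0.995).

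**Figure D3:**
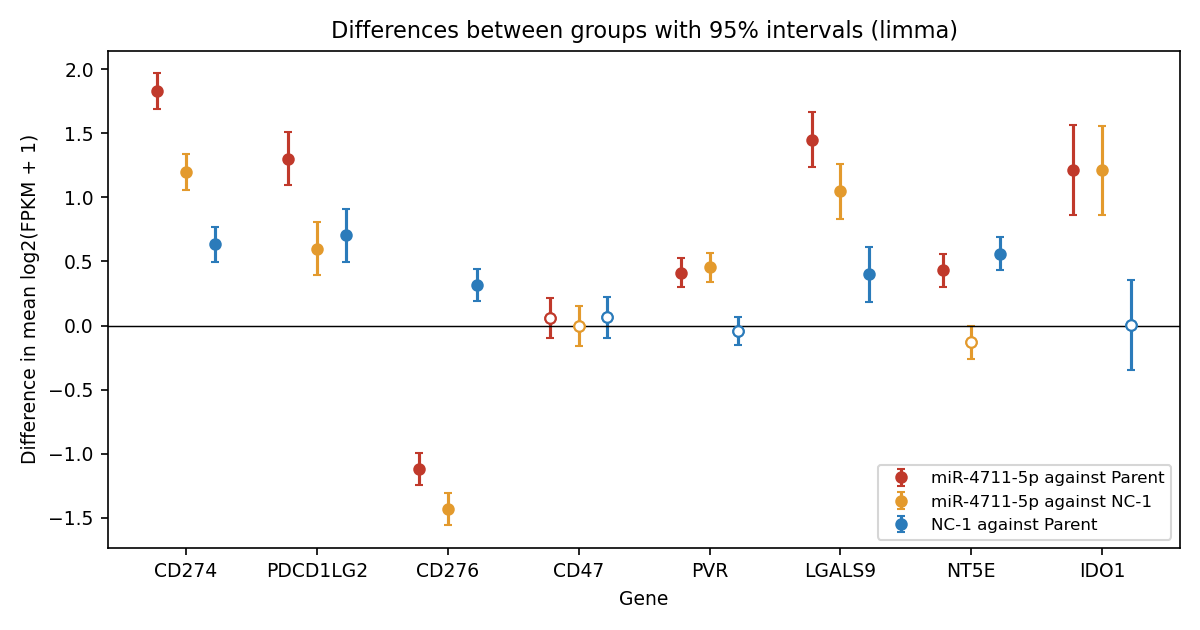
Difference in mean log2(FPKM + 1) between groups for the 8 tested genes, with 95% intervals from limma. Filled points were called at an adjusted p under 0.05 and open points were not. CD276 is the gene below 0 in both comparisons of miR-4711-5p, and the CD47 intervals hold 0 in all 3 comparisons.

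By level per exon length, the order in Parent was NT5E, PVR, CD276, CD47, CD274, LGALS9, IDO1, PDCD1LG2 and VTCN1. With miR-4711-5p it was NT5E, PVR, CD47, CD274, LGALS9, CD276, IDO1, PDCD1LG2 and VTCN1, so CD276 moved from place 3 to place 6. IDO1 and PDCD1LG2 overlapped in Parent and with miR-4711-5p and cannot be ordered there. The 9 genes summed to 177 FPKM in each Parent library, to 229 and 221 FPKM in NC-1, and to 235 and 228 FPKM with miR-4711-5p. NT5E made up 38.3% to 45.7% of these sums. The share of CD274 was 3.03% and 3.13% in Parent and 9.49% and 9.47% with miR-4711-5p, and that of CD276 was 18.3% and 17.2% in Parent and 5.85% and 6.20% with miR-4711-5p.

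The 300 bases around the annotated start (250 before and 50 after, RefSeq, GRCh38.p14) were searched on both strands for elements read by interferon-activated factors. The ISRE core was searched as GAAANNGAAA and the GAS core as TTCNNNGAA, and the NF-κB consensus as a pattern that allows several bases at some positions. Windows of CD274 and LGALS9 are shown because these genes rose and held a match, which is in capitals.
CD274, ISRE core: actgacatgTTTCACTTTCtgtttcatt
CD274, ISRE core: atgtttcacTTTCTGTTTCatttctata
CD274, GAS core: tccgccgatTTCACCGAAggtcaggaa
LGALS9, ISRE core: ttgctttggTTTCTATTTCtttgttaag
The CD274 matches to the ISRE core lie at chr9:5450334-5450343 and chr9:5450340-5450349, overlap each other and read on the strand opposite to the gene. The GAS core of CD274 is at chr9:5450417-5450425, and the ISRE core of LGALS9 is at chr17:27631179-27631188, again on the opposite strand. Among 35116 promoter windows, 3.57% held the ISRE core, 7.66% the GAS core and 5.91% the NF-κB consensus. The NF-κB consensus was in none of the windows searched for the genes described here. The windows of PVR and NT5E, which were also called higher against Parent, held no match to any of these elements. Nor did those of CD47, CD276 and VTCN1. PDCD1LG2 and IDO1 had no window in the set searched and were not analysed here for these elements. A match is a description, and no binding was measured.

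Regulators of CD274, a list of 21 genes from the interferon-γ axis, NF-κB and the control of PD-L1 stability, were all tested. Against Parent 9 were called higher and 1 lower (18.7% and 24.7% of all tested genes). Against NC-1 8 were called higher and 4 lower (18.4% and 21.2% of all tested genes). Their median log2 fold change was 0.12 against Parent and 0.05 against NC-1, beside -0.01 and 0.00 over all tested genes. IRF9, a factor of type I interferon signalling, had 26.7 and 26.0 FPKM in Parent, 36.5 and 38.5 FPKM in NC-1, and 79.6 and 75.4 FPKM with miR-4711-5p. It rose 2.94-fold against Parent (limma adjusted p = 3.95e-06) and 2.07-fold against NC-1 (limma adjusted p = 1.64e-05). STAT2, which acts in the same pathway, rose 2.32-fold against Parent (limma adjusted p = 1.61e-05). NLRC5, which drives MHC class I genes, rose 2.70-fold against Parent and SOCS3, a feedback inhibitor of cytokine signalling, 2.05-fold (limma adjusted p = 0.000190 and 0.00288). Against NC-1 the ratios of STAT2, NLRC5 and SOCS3 were 1.98, 1.74 and 2.09. NC-1 was itself called above Parent for STAT2 and NLRC5 (1.17- and 1.55-fold, limma adjusted p = 0.0372 and 0.0179), and SOCS3 was not called there (0.918). STAT3 and RELA, the NF-κB subunit, were called in neither comparison, with ratios of 1.07 and 1.06 against Parent (limma adjusted p = 0.179 and 0.206).

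The genes whose values over the 6 libraries were most like those of CD274, by the distance between centred log2(FPKM + 1) values, were HSH2D, EPSTI1 and IFI44, at distances of 0.18, 0.29 and 0.29. For LGALS9 they were KRT80, IFI35 and ANKRD1 (0.21 to 0.23), and for PDCD1LG2 NCOA7, ANKRD46 and C15orf48 (0.16 to 0.17). These distances describe 6 libraries and carry no test.

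Other co-signalling and checkpoint ligands numbered 32, of which 19 were tested. Against Parent 8 were called higher and 3 lower, where 43.4% of all tested genes were called. Against NC-1 2 were called higher and 5 lower, where 39.6% of all tested genes were called. TNFSF18, the ligand of GITR, had 0.330 and 0.504 FPKM in Parent, 0.587 FPKM and a listed 0 in NC-1, and 3.99 and 6.57 FPKM with miR-4711-5p. From control values under the filter of 1 FPKM it rose by 2.12 on the log2 scale against Parent. It passed the filter only through its miR-4711-5p libraries, so its limma p-value is not given as support. NECTIN1, a nectin listed as PVRL1, had 212 and 197 FPKM in Parent and 184 and 187 FPKM in NC-1. It fell to 90.5 and 89.6 FPKM with miR-4711-5p (2.27-fold lower than Parent, limma adjusted p = 5.69e-06). CD24, a ligand of Siglec-10 on macrophages, and LGALS1, galectin-1, were 1.53- and 1.61-fold lower than in Parent (limma adjusted p = 0.000186 and 6.01e-05). Compared with NC-1, CD24 and LGALS1 were 1.27- and 1.40-fold lower (limma adjusted p = 0.00296 and 0.000356). NC-1 was itself 1.21- and 1.15-fold below Parent for these genes (limma adjusted p = 0.0127 and 0.0224). BTN2A1, a butyrophilin, rose 1.44-fold against Parent (limma adjusted p = 0.000716). HLA-E and LGALS3 were called in neither comparison.

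Beside NT5E, 8 of 15 genes of the adenosine pathway were tested. Against Parent 1 was called higher and 2 lower, where 43.4% of all tested genes were called. Against NC-1 2 were called higher and 1 lower, where 39.6% of all tested genes were called. The number called against Parent went from 3 to 1 without Parent replicate 2, without miR-4711-5p replicate 1 and with no filter on low values. ADA, which breaks adenosine down to inosine, had 14.0 and 14.8 FPKM in Parent, 16.7 and 17.0 FPKM in NC-1, and 3.57 and 4.34 FPKM with miR-4711-5p. It was 3.63-fold lower than in Parent (limma adjusted p = 1.42e-05), with no overlap with either control group. The adenosine receptor ADORA2B and the transporter SLC29A2 were called in neither comparison.

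Beside IDO1, 13 of 18 genes of tryptophan and kynurenine metabolism and signalling were tested. Against Parent 4 were called higher and 5 lower, where 43.4% of all tested genes were called. Against NC-1 1 was called higher and 6 lower, where 39.6% of all tested genes were called. The number called against NC-1 went from 7 to 4 when either miR-4711-5p library was left out. SLC7A5, which carries tryptophan and kynurenine across the membrane, had 115 and 108 FPKM in Parent, 79.5 and 82.4 FPKM in NC-1, and 54.6 and 54.7 FPKM with miR-4711-5p (2.04-fold lower than Parent, limma adjusted p = 1.04e-05). Its partner SLC3A2 and the tryptophanyl-tRNA synthetase WARS1, listed as WARS, were 1.13- and 1.17-fold lower than in Parent (limma adjusted p = 0.0194 and 0.00578). Of the aryl hydrocarbon receptor targets in the list, CYP1A1 rose 3.66-fold against Parent from about 1 FPKM (limma adjusted p = 0.000871) and 2.11-fold against NC-1 (limma adjusted p = 0.00678). CYP1B1 was 1.62-fold lower than in Parent (limma adjusted p = 0.000278) and 2.94-fold lower than in NC-1 (limma adjusted p = 9.66e-06), where it was 1.82-fold above Parent (limma adjusted p = 0.000569). The further targets AHRR and TIPARP, named after their values were seen, were 1.35- and 1.18-fold higher than in Parent (limma adjusted p = 0.0172 and 0.0354) and were not called against NC-1 (0.974 and 0.163). The kynurenine enzymes AFMID and KYAT3, listed as CCBL2, were called in neither comparison. Of further enzymes named after their values were seen, KYNU was 1.26-fold higher than in Parent and 1.32-fold lower than in NC-1 (limma adjusted p = 0.00376 and 0.00212). KYAT1, listed as CCBL1, was 1.40-fold lower than in Parent (limma adjusted p = 0.00570) and was not called against NC-1 (0.748).

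For CD47, 6 of 9 genes of its axis were tested. Against Parent 1 was called higher and 3 lower, where 43.4% of all tested genes were called. Against NC-1 1 was called higher and 2 lower, where 39.6% of all tested genes were called. The number called against Parent went from 4 to 2 without Parent replicate 1 and without miR-4711-5p replicate 1. THBS1, thrombospondin-1 and a ligand of CD47, had 53.6 and 50.8 FPKM in Parent, 58.4 and 56.5 FPKM in NC-1, and 107 and 101 FPKM with miR-4711-5p (1.99-fold higher than Parent, limma adjusted p = 1.64e-05). LRP1, the receptor that takes up cells marked by calreticulin, had 27.1 and 26.8 FPKM in Parent, 29.6 and 29.8 FPKM in NC-1, and 11.7 and 11.5 FPKM with miR-4711-5p (2.33-fold lower than Parent, limma adjusted p = 5.88e-06). CALR, calreticulin itself, was 1.14-fold lower (limma adjusted p = 0.00783). B2M and APMAP were called in neither comparison of miR-4711-5p. Beside LGALS9, 5 of 15 galectin genes were tested, with 1 called higher and 1 lower against Parent and the same numbers against NC-1. The shares of all tested genes called were again 43.4% and 39.6%. LGALS3BP, which binds galectins, rose 1.29-fold against Parent (limma adjusted p = 0.00259), and LGALS8 was called in neither comparison. Among the genes named from these lists as lower than in Parent, 3 had a seed site in the longest 3′ UTR (NECTIN1, ADA and SLC7A5), 6 had none (LRP1, LGALS1, CYP1B1, CALR, SLC3A2 and WARS1), and CD24 was not matched to the annotation. Among those named as higher, 3 had a site (IRF9, NLRC5 and LGALS3BP) and 6 had none (TNFSF18, BTN2A1, STAT2, SOCS3, CYP1A1 and THBS1). AHRR, TIPARP and KYNU, also named as higher, and KYAT1, also named as lower, are left out of these counts. The share over all tested genes with a 3′ UTR was 18.4%, as given above, and it counts 8mers, such as the site of NECTIN1.

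**Figure D4:**
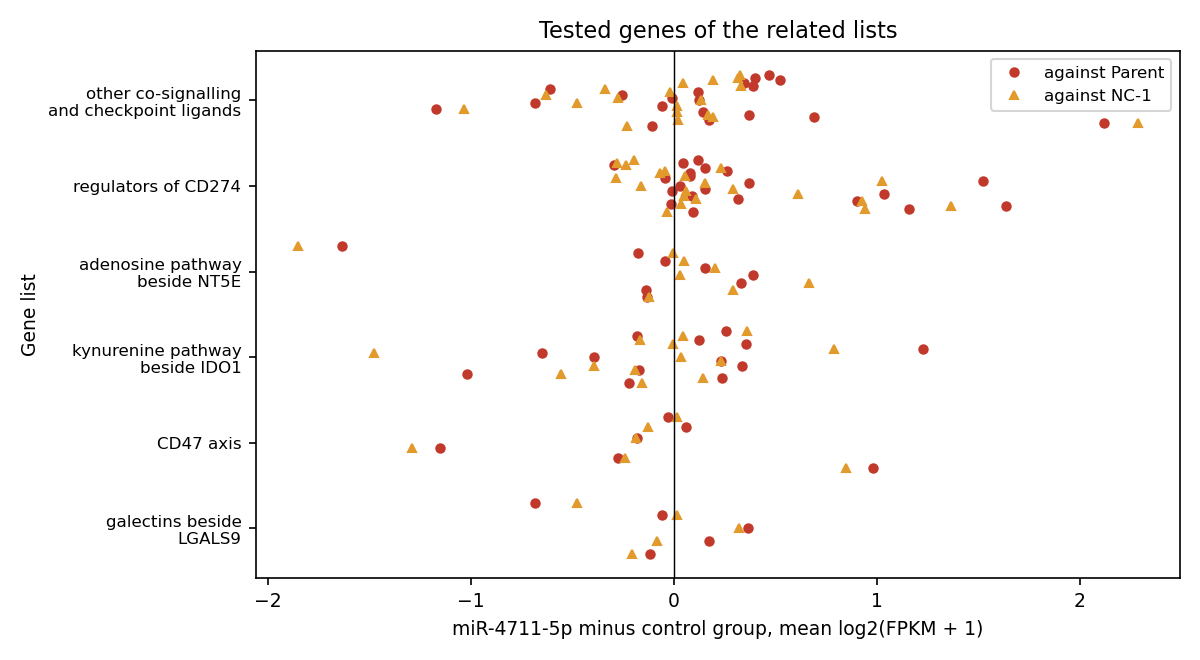
Difference in mean log2(FPKM + 1) between miR-4711-5p and Parent (circles) or NC-1 (triangles) for each tested gene of 6 related lists, with the genes of a list spread vertically. ADA lies farthest to the left, at -1.64 against Parent and -1.85 against NC-1, and TNFSF18 farthest to the right, at 2.12 and 2.29. TNFSF18 passed the filter on low values only through its miR-4711-5p libraries.

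Of 11 receptor genes of immune cells, among them PDCD1, SIRPA, TIGIT and HAVCR2, none reached a mean of 1 FPKM, and the highest single value was 0.366 FPKM, for SIRPA. Protein at the cell surface was not measured.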

How the data were processed

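The authors prepared stranded mRNA libraries and deposited FPKM per gene symbol, which they had normalized for exon length and library size. The submitters' processing notes name hg19, TopHat2 2.1.1, Bowtie2 2.3.5.1, SAMtools 1.2, Cuffdiff and Cufflinks 2.2.1. The gene annotation is not given in the sources used here. Groups were taken from the sample titles. No count model was fitted, since the values are FPKM. Genes averaging 1 FPKM or more were tested on log2(FPKM + 1) with limma 3.58.1 in R 4.3.3 (trended prior, all 3 groups in 1 fit, 3 residual and 4.15 prior degrees of freedom, two-sided, Benjamini-Hochberg over all 12040 genes). Fold changes are ratios of mean FPKM. Sites were searched with Python 3.11.15 and pysam 0.24.0. Of the 12040 genes, 10599 matched the annotation by symbol, 592 through a synonym, and 849 had no match. The limma script was tested with simulated libraries. The 9 genes and the other lists were chosen with earlier results of these data known. From each list, genes called in the same direction against both controls with no overlap of libraries were named, at most 5 by log2 fold change against Parent, and at most 2 abundant genes called in neither. A gene that this rule names is not reported here. Alternatives were other pseudocounts and filters, rescaling, no trend, pairs of groups, a replicate block and each library left out, where the lone library of a group is assumed to vary like the other groups.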

Additional observations from a re-analysis of the deposited data

How the results depend on the processing

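The number of the 9 genes called stayed at 7 against Parent and 6 against NC-1 under all 15 alternatives, and between NC-1 and Parent it was 4 or 5, with LGALS9 the gene lost. The count of all genes called was 5230 against Parent, 3246 to 5185 with 1 library left out, 4763 against NC-1, 2887 to 4679 with 1 library left out, and 3279 between NC-1 and Parent, 1457 to 2385 with 1 library left out and 2165 with no filter on low values. The log2 fold change of CD47 reversed sign without Parent replicate 1, to -0.0142 against Parent and -0.0093 between NC-1 and Parent, and against NC-1 to 0.0012 after median-of-ratios rescaling and to 0.0574 without NC-1 replicate 1. With 1 library left out in turn it ranged from -0.0142 to 0.1302 against Parent, from -0.0673 to 0.0574 against NC-1 and from -0.0093 to 0.1352 between NC-1 and Parent. That of IDO1 between NC-1 and Parent reversed to -0.0025 with a pseudocount of 0.1, and ranged from -0.1869 without NC-1 replicate 1 to 0.1904 without NC-1 replicate 2, with -0.1279 without Parent replicate 2. None of these was called. The cause was not tested. Rescaling over all genes above 0 was an alternative chosen after seeing the data, and it changed no call of the 9 genes. Replicate numbers did not pair the libraries (correlations of deviations from 0.06 to -0.01), and with the replicate block 4983, 4564 and 2864 genes were called and no call of the 9 genes changed. Searching any annotated transcript left the genes with a 3′ UTR site at 2. VTCN1 was tested only with no filter on low values, where it was not called in any comparison (limma adjusted p from 0.448 to 0.790). The depth in reads is unknown, so the precision of such low values is known only from 2 libraries a group.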
